A study of Mus musculus with 2 samples.

Results

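Of the 4068 LSK cells kept from the matrix, 860 were selected on 5 transcripts of proliferating cells. LSK cells are the lineage-negative, Sca-1-positive, c-Kit-positive fraction of mouse bone marrow, a mixture of hematopoietic stem cells and multipotent progenitors. A cell was chosen when its summed unique molecular identifiers (UMIs) of Mki67, Ube2c, Birc5, Top2a and Cdk1 reached at least 3 per 10,000 UMIs of the cell. They are called cycling cells here and were 21.1% of the kept cells (exact 95% interval 19.9 to 22.4). The reference was the 2120 kept cells (52.1%) without a UMI of any of the 5 genes, called cells at 0. A further 1088 cells (26.7%) lay between. All differences between these groups in the same cells are given as a description, with no test, since the transcripts of each cell chose its group.

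The cells came from C57BL/6JRj mice, young (3 to 5 months) or old (22 to 28 months), with the marrow of 4 mice pooled per age. Each age was sequenced as 1 library by CITE-seq, in which transcripts and the DNA tags of surface antibodies are counted in the same droplet. The antibodies recognised CD48, CD150 and CLCA3A1. Barcodes end in 1 or 2 for the library of origin, but the sources used here pair neither number with an age, so cells of both ages are pooled and no value below compares them. Values are also given in each library, where a difference between suffixes can be of age or of library and these cannot be told apart, and no barcode sequence occurred in both (0 shared). The kept cells held 71367333 UMIs after the depth normalization of the authors' aggregation step. With 1 library per age, intervals cover counting error only.

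In the cell cycle, cyclin E and the E2F factors open S phase, in which the MCM helicase and DNA polymerases copy the genome. Cyclins A and B with CDK1 then drive G2 and mitosis, in which the spindle, kinetochores and condensins separate the chromosomes and the anaphase-promoting complex with Cdc20 ends mitosis. Long-term stem cells of the marrow are known to be mostly quiescent, whereas the multipotent progenitors derived from them divide often. CD150 is known as a marker of stem cells, and CD48 of progenitors.

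The 5 genes that chose the cells were broadly shared among them. Top2a, which untangles DNA, had a UMI in 97.8% of the cycling cells, Cdk1 in 94.8%, Mki67 in 91.3%, the survivin gene Birc5 in 84.4% and the ubiquitin-conjugating enzyme gene Ube2c in 64.0%. All 5 were detected in 510 cells (59.3%), and 7 cells had a single one of them. The sum per 10,000 UMIs had its lowest value at 3.04, its median at 16.0 and its highest value at 71.9. Just inside the threshold, 42 cells lay from 3 to under 3.5, and just outside it, 49 cells lay from 2.5 to under 3. The share was 23.1% in the library of suffix 1 (352 of 1524 cells, 21.0 to 25.3) and 20% in that of suffix 2 (508 of 2544 cells, 18.4 to 21.6).

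The cycling cells carried more RNA molecules than the rest. Their median depth was 27356 UMIs, against 13062 in the cells at 0 and 16046 in the cells between. The ratio of the medians of cycling cells to cells at 0 was 2.09, with 2.15 in suffix 1 and 2.06 in suffix 2. Detected genes per cell differed less (ratio 1.47), and once each cell was thinned to 10,000 UMIs the median was 3280 genes in cycling cells and 3217 in cells at 0. Of the 431 cells under 10,000 UMIs, 4.87% were cycling, compared with 79.1% of the 387 cells at 30,000 or more. The share of mitochondrial UMIs was lower in the cycling cells (ratio of medians 0.873), as was that of ribosomal protein UMIs (0.842). Scrublet called 18 of the cycling cells doublets (2.09%), and 10 of the cells at 0 (0.472%). Without the called doublets the ratio of median UMIs was again 2.09.

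**Figure D1:**
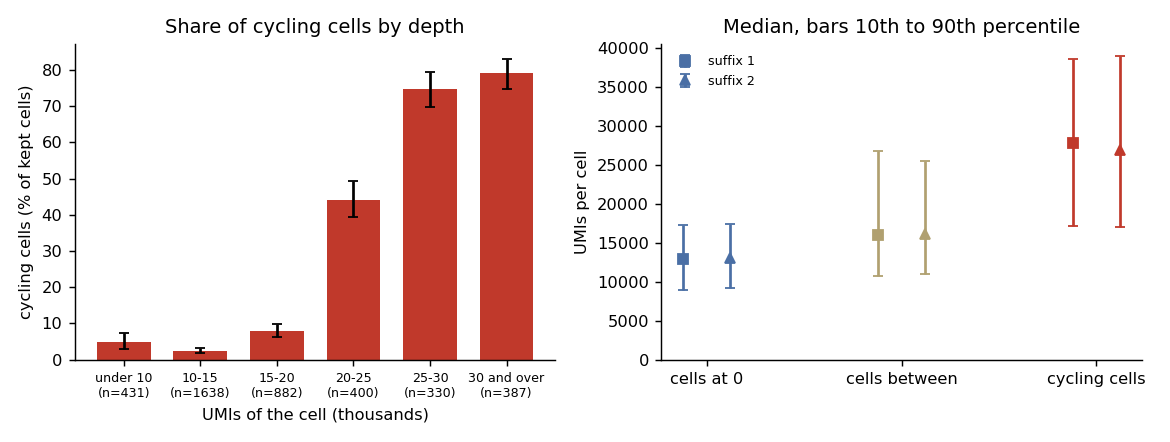
Left, bars give the share of cycling cells among the kept cells in each band of UMIs per cell, with exact 95% intervals and the number of cells. Right, points give the median UMIs per cell of the 3 groups in each library, with bars from the 10th to the 90th percentile, and the median of the cycling cells is 27356 over both libraries.

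The lists of G2 and mitosis genes were higher almost throughout. Transcripts were summed over the cells of a group and scaled to CPM, the count per 1000000 UMIs of the group, without the 5 genes, and a gene was called at a ratio of at least 2-fold after adding 10 CPM. Over 6 lists, 80 of 84 genes were higher and 0 were lower, with a median log2 ratio of 2.53. Over all 10031 genes tested, 4.19% were higher (420 genes), 1.83% were lower (184 genes) and the median was -0.01. Since the 5 genes belong to the same program, these shares describe the choice of cells and support nothing further. Of the called genes, 362 of those higher and 65 of those lower passed the limit in each library alone, and 0 passed it in opposite directions.

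Among cyclins, Ccnb2, a partner of CDK1, had 192 CPM in the cycling cells of suffix 1 and 154 in those of suffix 2, against 2.29 and 1.28 CPM in the cells at 0. Its log2 ratio was 3.95. Ccna2, the cyclin of S phase and G2, had 139 and 127 CPM against 0.417 and 0.694, and a log2 ratio of 3.74. In both libraries these cyclins were near 0 in the cells at 0. Wee1, a kinase that holds CDK1 inactive, had 80.6 against 40.1 CPM and missed the limit at 0.85.

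The 12 mitotic kinases and checkpoint genes were all higher, from Mastl at 1.18 to the kinase gene Pbk at 3.84. Aurkb, the kinase of the chromosomal passenger complex, had 128 and 130 CPM in the cycling cells of suffix 1 and suffix 2, against 0.938 and 1.01 in the cells at 0, a log2 ratio of 3.67. Its partner Cdca8, borealin, had 259 and 239 against 3.33 and 4.11, a log2 ratio of 4.22. Both genes were among the 362 genes that were called higher and passed the limit in each library alone. They belong to the same program as the genes that chose the cells, so their separation in each library describes that choice.

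All 20 spindle and motor genes were higher (median log2 ratio 2.71). Tpx2, which activates Aurora A on the spindle, Nusap1, a microtubule binder, and Prc1, which bundles the central spindle, reached 3.64, 3.82 and 3.60. All 18 centromere and kinetochore genes were also higher (median 2.92), with Cenpf at 4.08 and the NDC80 subunit gene Spc24 at 4.06. Of the 12 condensin and chromosome structure genes, 11 were higher (median 2.38), and Lbr, the lamin B receptor gene, missed the limit at 0.94. Hmgb2, a chromatin protein gene, went from 211 CPM in the cells at 0 to 2245 in the cycling cells.

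Of the 12 genes of mitotic exit and cytokinesis, 10 were higher, among them Cdca3 at 3.73 and Cdc20 at 3.14. Fzr1, the partner of the anaphase-promoting complex after mitosis, stood at 0.78. Pttg1, the securin gene, was the only gene of the 6 lists with a negative log2 ratio, -0.48 in each of suffix 1 and both libraries together and -0.47 in suffix 2. It had 25.1 CPM in the cycling cells and 38.9 in the cells at 0. Per cell, its log2 ratio was 0.35, so its sign depended on the scale.

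The replication genes were higher in the same cells. Of 31 DNA replication genes, 30 were higher (median 1.97), with Chaf1b, a histone chaperone subunit, at 0.52. Pclaf, a PCNA-binding factor, showed the largest log2 ratio of all genes tested, with 369 and 427 CPM in the cycling cells of the 2 libraries against 3.13 and 3.63 in the cells at 0. This was a log2 ratio of 4.94 with 10 CPM added, and a ratio of 117 without it (counting interval 95.5 to 144). Of 9 genes of nucleotide synthesis, 7 were higher, led by the thymidine kinase gene Tk1 at 3.90 and the ribonucleotide reductase gene Rrm2 at 3.74. All 12 genes of DNA repair were higher (median 1.95). Of 13 histone genes, 10 were higher, with the linker histone gene Hist1h1b at 3.80. Tubulin genes and Stmn1 counted 7 higher of 10, and Stmn1, which destabilises microtubules, had 2846 against 638 CPM.

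The genes that control entry into the cycle showed smaller ratios. Of 8 G1 cyclins and CDKs, the cyclin E genes Ccne1 (1.05) and Ccne2 (1.55) were higher. Cdk4 and Cdk6, the kinases of D-type cyclins, stood at 0.91 and 0.88. The D-type cyclin gene Ccnd2 had 171 CPM in cycling cells and 276 in cells at 0 (-0.66), a sign that turned per cell (0.36). In the E2F and RB family 7 of 13 were higher, with the late repressor E2f8 at 2.39, Mybl2 at 2.10 and the G2 factor Foxm1 at 1.88. Of 5 tested CDK inhibitors, 1 was lower: Cdkn1c, the p57 gene known from quiescent stem cells, had 9.62 against 45.9 CPM (-1.51). Its log2 ratio was -0.68 in suffix 1, -1.89 in suffix 2 and -0.76 at 15,000 to under 25,000 UMIs, so the 2-fold limit was passed in 1 library and not in that depth band. Within the gates set by CD48 and CD150 tags, described further on, it was -1.44 in the CD48-low CD150-high gate, -0.38 in both CD48-high gates and -0.14 in the CD48-low CD150-low gate. In the first of these gates, suffix 1 gave 49 of 82 cycling cells and 262 of 1037 cells at 0. Over all cells at 0, Cdkn1c had 25.3 CPM in suffix 1 and 56.5 in suffix 2. The part of this library mix in the gate value was not tested. After thinning, 7.75% of cycling cells and 28.1% of cells at 0 had a Cdkn1c UMI, at the same depth. Of the B cell genes, Cd79a was seen in 0.238% and 0.790% of the same thinned cells and Igkc, an immunoglobulin gene, in 24.9% and 35.9%. The Cdkn1c shares lay below those of Igkc, so they are not read as shares of cells expressing it.

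**Figure D2:**
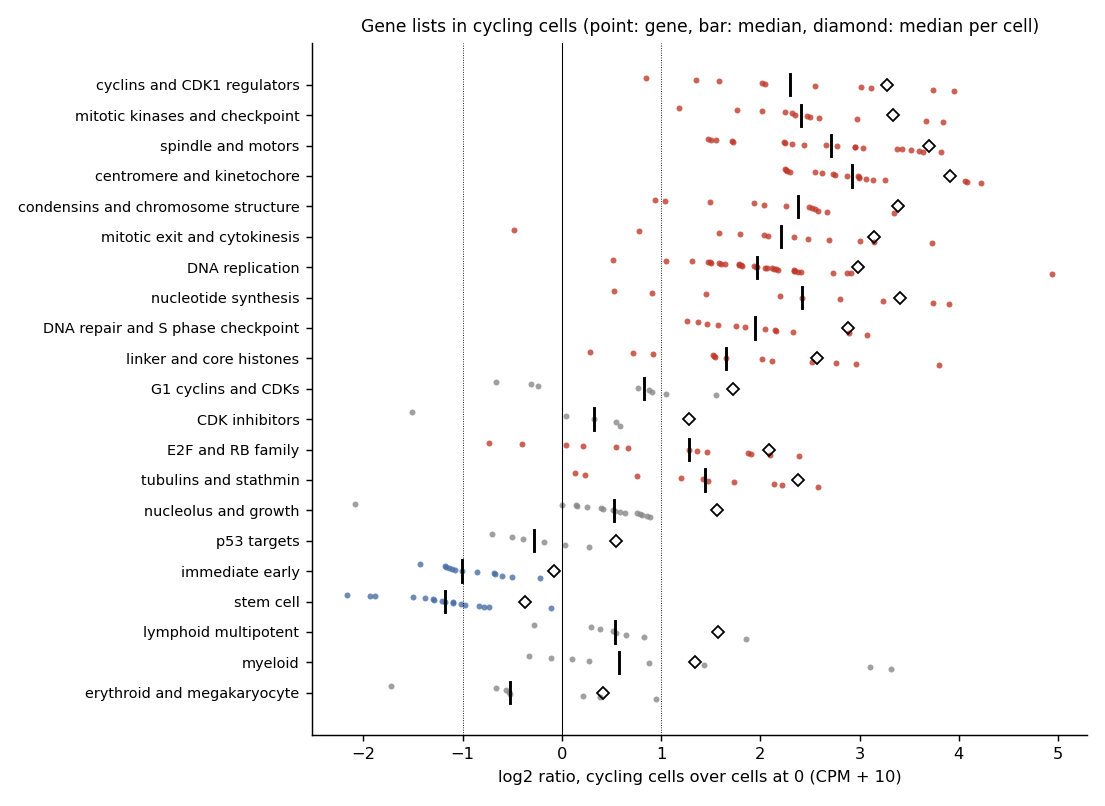
Each point is a gene at its log2 ratio of cycling cells to cells at 0 on the scale of CPM with 10 added, by list; vertical bars are list medians, diamonds are list medians on the scale of UMIs per cell, and dotted lines mark 2-fold. Red and blue mark lists whose median is at least 2-fold higher or lower, and the 6 lists of G2 and mitosis lie to the right with Pttg1 at -0.48.

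The promoters of these genes are shown because the G2 and mitosis genes and the replication genes differed in the letters they carry. The searched motifs were CHR (TTTGAA or TTCGAA), the box CCAAT and E2F (TTCCCGC or TTGGCGC or TTCGCGC), on either strand, in windows from 250 bases before to 50 bases after the start sites listed by RefSeq (GRCm38.p6). CHR and CCAAT are known as elements of promoters of G2 and mitosis genes, and E2F sites as elements of promoters of S phase genes. For the 6 lists, 70 of 84 genes matched, with 78 promoters, some of them of the same gene. Of these, 69.2% held CHR, against 19.2% of all 32851 promoters, 69.2% held CCAAT against 37.4%, and 21.8% held E2F against 8.07%. Among the 10138 promoters matched to the genes tested, from which the lists come, the shares were 14.2% for CHR, 38.2% for CCAAT and 15.2% for E2F, so the E2F share of the 6 lists lay closer to that background. In the DNA replication list, 25 of 31 genes matched, with 32 promoters, of which 15.6% held CHR, 62.5% CCAAT and 68.8% E2F. The promoters of all genes called higher held CHR in 37.0% and E2F in 35.7%. Those of the genes called lower held them in 12.7% and 6.36%, against the 14.2% and 15.2% of the genes tested. The E2F letters TTGGCGC can share bases with CCAAT on the opposite strand, and CHR shares a base with such a CCAAT in Cdca8. A match is not evidence of binding. The sequences run 5′ to 3′ along the gene from 120 bases before to 50 bases after the start site, and capitals mark every match.
Ccnb2, chr9:70421505-70421674, minus strand: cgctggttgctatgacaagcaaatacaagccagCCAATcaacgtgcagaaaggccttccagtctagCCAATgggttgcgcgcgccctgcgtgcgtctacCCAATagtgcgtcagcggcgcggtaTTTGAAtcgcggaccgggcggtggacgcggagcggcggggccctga
Cdc20, chr4:118437294-118437463, minus strand: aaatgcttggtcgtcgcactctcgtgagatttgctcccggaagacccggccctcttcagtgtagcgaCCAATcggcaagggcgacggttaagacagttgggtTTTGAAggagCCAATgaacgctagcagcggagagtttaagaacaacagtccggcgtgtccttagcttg
Plk1, chr7:122159315-122159484, plus strand: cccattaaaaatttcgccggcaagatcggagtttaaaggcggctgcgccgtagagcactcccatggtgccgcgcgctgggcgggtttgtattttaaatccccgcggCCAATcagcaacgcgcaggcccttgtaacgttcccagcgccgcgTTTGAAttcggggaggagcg
Cdca8, chr4:124936868-124937037, minus strand: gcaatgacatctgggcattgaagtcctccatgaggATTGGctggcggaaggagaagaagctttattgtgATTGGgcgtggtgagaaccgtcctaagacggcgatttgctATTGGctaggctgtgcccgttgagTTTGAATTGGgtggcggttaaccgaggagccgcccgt
Pclaf, chr9:65890203-65890372, plus strand: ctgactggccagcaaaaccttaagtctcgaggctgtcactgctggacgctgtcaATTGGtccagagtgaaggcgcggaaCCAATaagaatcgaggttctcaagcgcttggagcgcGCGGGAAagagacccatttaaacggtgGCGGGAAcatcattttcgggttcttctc
Procr, chr2:155751097-155751266, plus strand: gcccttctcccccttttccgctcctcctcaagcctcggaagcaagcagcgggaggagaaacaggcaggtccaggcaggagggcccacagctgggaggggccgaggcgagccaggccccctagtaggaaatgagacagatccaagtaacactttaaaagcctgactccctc
In the first 4, of G2 and mitosis genes, a CHR began between -18 and 30 bases from the start site. In Pclaf, no CHR letters lay in the window, and E2F letters began at -5 and 22. The window of Procr, a stem cell gene with a negative log2 ratio, held none of these letters.

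The name G2 and mitosis was too narrow for all these cells. For a check of phase, each cell was thinned to 10,000 UMIs, which left out 21 cycling cells and 347 cells at 0 as too shallow. The summed UMIs of the 6 lists had a median of 94 in the 839 cycling cells, 11 in the cells at 0 and 15 in the cells between. The DNA replication list had a median of 48 in cycling cells, 7 in cells at 0 and 13 in cells between. With the 99th percentile of the cells at 0 as limit (25 UMIs and 39 UMIs), 61.4% of cycling cells (515) were above both limits. A further 37.1% (311) were above the G2 and mitosis limit alone, 7 cells were above the replication limit alone, and 6 were above neither. Of the cells between, 18.1% were above the first limit and 18.1% above the second. The cycling cells thus spanned cells high in replication genes and cells high in mitotic genes.

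Ordered by the sum of the 6 lists, the quartiles of the cycling cells (215, 210, 206 and 208 cells) showed different genes in turn. The median replication sum was 56 UMIs in the lowest quartile, then 60.5, 43 and 19. Ccne1 and Ccne2 together had 53.6, 64.9, 19.7 and 3.94 CPM. Mcm5, a subunit of the replicative helicase that is in no list of the ordering, had 292 CPM in the lowest quartile and 85.3 in the highest. Pclaf was highest in the second quartile, with 349, 669, 414 and 163 CPM.

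Hist1h1b had 23.3 CPM in the lowest quartile and then 172, 195 and 158. Genes of the lists that set the order followed it by construction: Ccna2 had 31.5, 96.0, 150 and 244 CPM, Ccnb1 had 10.5, 27.5, 94.6 and 274, and Cdc20 had 25.5, 50.7, 150 and 387. A UMI of Ccnb1, Ccnb2, Cdc20 or Plk1 was present in 35.8%, 68.6%, 93.2% and 100% of the cells. Ccnd2, outside the ordering lists, had 246, 175, 147 and 122 CPM. The median CD48 tag count was 693, 815, 750 and 756, and the median depth went from 24916 to 29662 UMIs, so tags and depth differed little among the quartiles compared with the cells at 0. The summed rate of the 5 genes moved with the order, from a median of 4.77 to 36.1 per 10,000 UMIs.

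**Figure D3:**
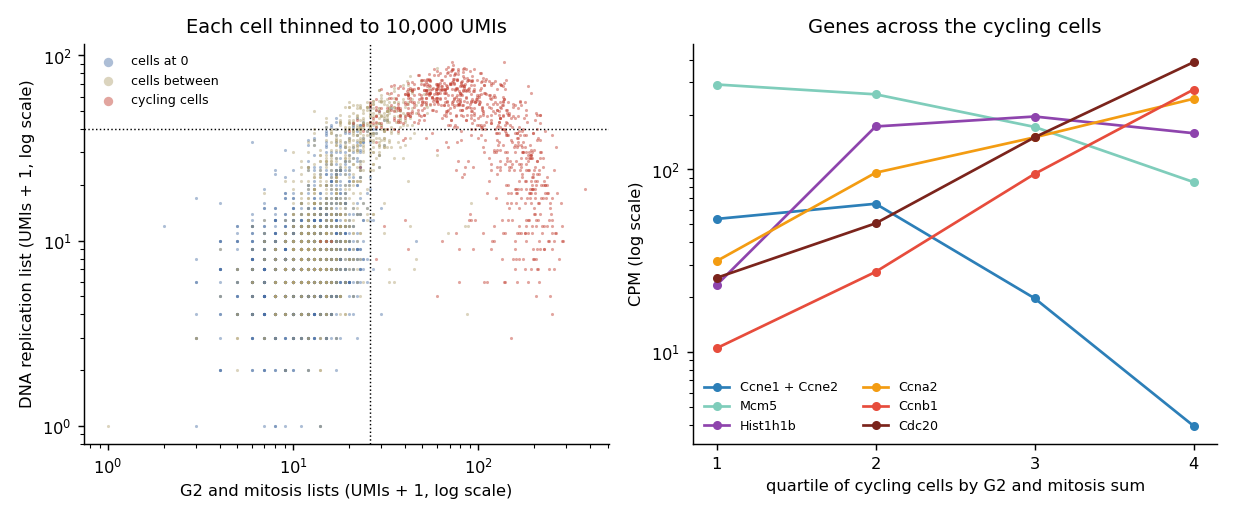
Left, each point is a cell thinned to 10,000 UMIs, at its UMIs of the G2 and mitosis lists (x, plus 1, log scale) and of the DNA replication list (y, plus 1, log scale), and dotted lines mark the 99th percentile of the cells at 0. Right, lines give the CPM (log scale) of 6 genes or pairs in the quartiles of the cycling cells, where Ccne1 and Ccne2 go from 53.6 to 3.94 and Cdc20 from 25.5 to 387.

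The cycling cells were unevenly spread over the surface tags. By CD48 tags, in quartiles set within each library, the share of cycling cells was 2.78% in the lowest quartile, 11.7% and 21.5% in the middle ones and 50.3% in the highest. In suffix 1 it went from 5.85% to 50.8%, and in suffix 2 from 0.948% to 49.9%. The median CD48 tag count was 744 in cycling cells and 120 in cells at 0. Tags that mapped to no antibody moved in the same direction, with shares of 5.95%, 16.3%, 24.2% and 41.0% and medians of 46 and 26 tags.

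Among the 1273 cells of 15,000 to under 25,000 UMIs, the unmapped tags no longer ordered the cells (19.0%, 21.8%, 20.6% and 14.9%). In that band the CD48 quartiles still had 4.15%, 17.7%, 22.0% and 26.4%. Their median depth within the band also rose with the quartile, at 16497, 17400, 18197 and 19800 UMIs. The share of cycling cells was 7.82% from 15,000 to under 20,000 UMIs and 44.2% from 20,000 to under 25,000. The band thus did not hold depth fixed across the CD48 quartiles. When the CD48 count was divided by the unmapped tags, the shares over all depths were 5.31%, 19.7%, 35.4% and 25.6%, so the highest quartile no longer held the largest share. The lowest CD48 quartile had the smallest share on each of these scales.

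By CD150 tags the shares were 26.2%, 29.7%, 20.1% and 10.1%. This difference came mainly from suffix 2, with 28.1% in the lowest and 3.86% in the highest quartile. In suffix 1 the shares were 23.0%, 23.7%, 27.0% and 20.4%, and the intervals of the outer quartiles overlapped. The median CD150 count was 7 in cycling cells and 25 in cells at 0. In suffix 1, the medians were 7.5 and 6, and in suffix 2 they were 7 and 102. By CLCA3A1 tags the shares were 27.5%, 26.5%, 18.9% and 12.8%, with the opposite sign in suffix 1 (22.1%, 18.1 to 26.6, in the lowest and 25.8%, 21.4 to 30.6, in the highest quartile). These intervals overlapped, which does not decide whether the shares of suffix 1 differ, and that difference was not tested.

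**Figure D4:**
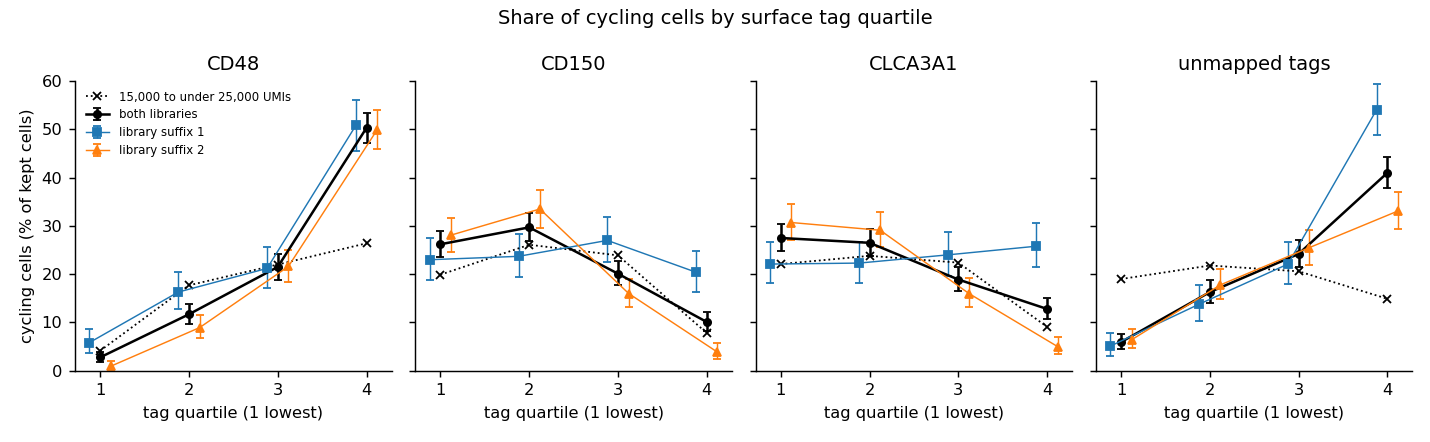
Share of cycling cells (%) by tag quartile for the 3 antibodies and the unmapped tags, over both libraries (black) and in each library, with exact 95% intervals; the dotted line covers cells of 15,000 to under 25,000 UMIs. For CD48 the black line goes from 2.78% to 50.3%, and for unmapped tags the dotted line goes from 19.0% to 14.9%.

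When both tags were crossed, the CD48 level separated the shares more than the CD150 level. The cells in the lowest CD48 and highest CD150 quartile, the phenotype known for long-term stem cells, held 10 cycling cells of 553 (1.81%, 0.870 to 3.30). In the highest CD48 quartile, the shares across the CD150 quartiles were 47.7%, 51.4%, 54.9% and 45.5%. In the third CD48 quartile they were 16.4%, 21.0%, 27.0% and 29.2%, and in the lowest 7.14%, 5.49%, 2.25% and 1.81%. The order along CD150 ran in opposite directions in these rows. The intervals of the outer squares met at their ends, in the third quartile (12.8 to 20.6 and 20.3 to 39.3) and in the lowest (2.92 to 14.2 and 0.870 to 3.30). Such an overlap does not decide whether the shares differ, and the difference was not tested. Split at the medians of each library, the CD48-high CD150-low gate held 58.0% of the cycling cells with tags (497 of 1423 cells cycling, 34.9%). The CD48-high CD150-high gate had 38.2%, the CD48-low CD150-low gate 10.6% and the CD48-low CD150-high gate 5.80%. In the last gate, suffix 1 had 11.1% and suffix 2 had 3.39%.

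**Figure D5:**
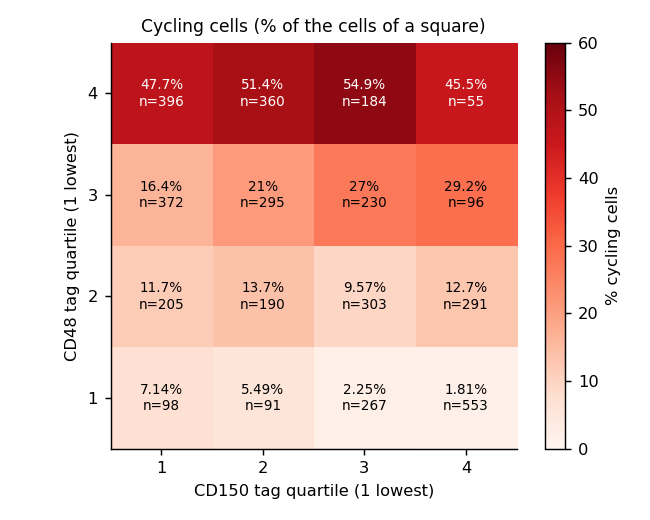
Share of cycling cells (colour and number, %) in each pair of CD48 quartile (y) and CD150 quartile (x), with the number of cells n. The square of lowest CD48 and highest CD150 is at 1.81%, and the row of highest CD48 lies between 45.5% and 54.9%.

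The stem cell list was lower in the cycling cells by share of RNA. Of 17 genes, 12 were lower and 0 were higher, with a median log2 ratio of -1.18 (-0.78 in suffix 1, -1.30 in suffix 2) on the CPM scale. The number lower was 6 in suffix 1 alone and 13 in suffix 2 alone, where 0.828% and 2.68% of all genes tested were lower, so the list and all genes moved in the same order. In the CD48-high CD150-low gate it was 2, with 0.6% of all genes lower. On the scale of UMIs per cell the list median was -0.37 and 2 genes were lower, while 0.439% of all tested genes were lower and the median over all of them was 0.80. Procr, the protein C receptor, had 21.5 and 26.3 CPM in the cycling cells of suffix 1 and suffix 2, against 87.2 and 173 in the cells at 0. Its log2 ratio was -2.16 and stayed negative per cell (-1.34). Mllt3, a regulator of stem cell maintenance, was at -1.88 and -1.04 per cell, and Txnip, a thioredoxin-binding protein, at -1.93 and -0.90 per cell.

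The transcription factor gene Hlf had 186 CPM in cycling cells and 389 in cells at 0 (log2 ratio -1.02, with -0.91 in suffix 1 and -1.31 in suffix 2). Per cell it had 5.18 and 5.20 UMIs, so its molecules per cell were about level while its share was lower. Mecom, another stem cell transcription factor, was at -1.30 by CPM (-0.79 in suffix 1 and -1.61 in suffix 2) and -0.43 per cell, and Meis1 at -0.78 and 0.24. At a depth of 15,000 to under 25,000 UMIs, where 246 cycling cells met 519 cells at 0, the list median was -0.88 by CPM and -0.62 per cell, and 4 genes were lower by CPM, as were 0.753% of the 9960 genes tested there. The median depths in that band were 22276 and 16554 UMIs, so it narrowed the gap in depth without closing it.

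Within tag gates the list differed less. Its median was -0.68 in both CD48-high gates, -0.74 in the CD48-low CD150-high gate and -0.57 in the CD48-low CD150-low gate. The genes lower numbered 8 in the CD48-low CD150-high gate and from 2 to 4 in the others. Gate values pool both libraries, and in the CD48-low CD150-high gate their mix was unequal. Suffix 1 gave 49 of its 82 cycling cells and 262 of its 1037 cells at 0, and the part of this mix was not tested. Of all genes tested, 2.03% were lower in that gate, against 0.431% in the CD48-high CD150-high, 0.6% in the CD48-high CD150-low and 0.683% in the CD48-low CD150-low gate, so all genes also had the most calls there. Procr passed the limit in each of the 4 gates, from -1.22 to -2.35, whereas Hlf passed it in none, from -0.52 to -0.93. Mllt3 was at -0.47 and Mecom at -0.51 in the CD48-high CD150-low gate, both inside the limit. Txnip had 0.322 of the level of cells at 0 in the CD48-high CD150-low gate (198 against 614 CPM) and 0.317 in the CD48-low CD150-high gate (400 against 1261 CPM). Mycn, a MYC family gene, had 0.375 and 0.245 of that level in the same gates. Per cell the differences were smaller, with 5.68 against 8.99 UMIs of Txnip in the first gate and 9.44 against 16.6 in the second. Mycn had 0.364 against 0.496 and 1.12 against 2.55 UMIs per cell. Over all cells at 0, Mycn had 66.6 CPM in suffix 1 and 145 in suffix 2. The unequal library mix of the second gate therefore also enters its Mycn ratio, to an extent that was not tested. The gates held different shares of the cycling cells and of the cells at 0, and their part in the difference of the list over all cells was not tested.

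Cdk6, known to act at the exit from quiescence, differed between gates. In the CD48-low CD150-high gate it had 312 CPM in cycling cells and 127 in cells at 0, a ratio of 2.45 (counting interval 2.23 to 2.69). In the CD48-high CD150-low gate it had 490 and 458 CPM, a ratio of 1.07 (1.03 to 1.12). The CD48-high CD150-high gate had a ratio of 1.28 (1.19 to 1.38) and the CD48-low CD150-low gate one of 1.52 (1.35 to 1.71). Per cell, Cdk6 was higher in each of the 4 gates, with 7.37 against 1.68 UMIs in the CD48-low CD150-high gate and 14.1 against 6.70 in the CD48-high CD150-low gate. Cycling cells were also deeper there, with ratios of median UMIs of 1.84 and 2.01, so values per cell include this difference in depth. The stem cell phenotype of lowest CD48 and highest CD150 had 251 against 83.1 CPM, a ratio of 3.02 (2.22 to 4.04) from 10 cycling cells. Cd34, a surface glycoprotein gene of progenitors, showed ratios of 1.97 (1.77 to 2.17) and 0.868 (0.836 to 0.900) in the first 2 of these gates. Per cell it had 5.91 against 1.68 UMIs in the first and 15.6 against 9.20 in the second, so its direction in the second turned with the scale. The cells of a gate share their libraries, in unequal mix in the CD48-low CD150-high gate, and the difference between gates was not tested.

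Lineage genes were higher in part. Among 8 tested myeloid genes, 3 were higher: Mpo and Ctsg, of neutrophil granules, and Irf8, a transcription factor of monocytes. Mpo had 159 and 481 CPM in the cycling cells of suffix 1 and suffix 2, against 26.6 and 34.5 CPM in the cells at 0, with log2 ratios of 2.21 and 3.46. Irf8 was at 0.35 in suffix 1 (41.2 against 30.2 CPM) and 2.08 in suffix 2 (84.5 against 12.3 CPM), so it passed the limit in suffix 2 alone. The median of the myeloid list was 0.07 in suffix 1 and 0.96 in suffix 2, and the myeloid transcription factor genes Cebpa (-0.50 and 0.85) and Spi1 (-0.32 and 0.35) differed in sign between the libraries. Prtn3, another granule gene, had 593 CPM in cycling cells and 750 in cells at 0 (-0.33), and 16.5 and 10 UMIs per cell (0.71), so its sign turned with the scale. At 15,000 to under 25,000 UMIs, the log2 ratio of Mpo was 0.97 and that of Ctsg 1.28. After thinning, 49.7% of cycling cells and 12.5% of cells at 0 had an Mpo UMI. Within the tag gates, Mpo and Ctsg passed the limit in both CD48-high gates (2.15 and 2.40 for Mpo, 2.63 and 2.06 for Ctsg) and in neither CD48-low gate. In the CD48-low gates Mpo was low, at 6.2 against 2.2 CPM with high CD150 and 20 against 9.02 CPM with low CD150. Without the 10 CPM added, its ratios there were 2.82 (1.32 to 5.68) and 2.22 (1.29 to 3.74). Ctsg rested on 2 and 6 UMIs of the cycling cells, so these gates say little about either gene. Irf8 passed it in none of the 4 gates, from -0.02 to 0.91.

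Among 8 tested lymphoid genes, Dntt, the terminal transferase, was higher (378 against 97.1 CPM, 1.86). In the CD48-high CD150-low gate, which held most of the cycling cells, it was at 0.76 and inside the limit, as in the CD48-low CD150-high gate (0.79), and it passed in the other two (1.03 and 1.68). Flt3 stood at 0.65, with 0.10 in suffix 1 and 1.12 in suffix 2. The median of the lymphoid list was 0.04 in suffix 1 and 0.94 in suffix 2. Among 8 tested erythroid and megakaryocyte genes, Vwf, an endothelial and platelet gene of CD150-high stem cells, was lower (-1.72). It was at -0.60 in suffix 1 (2.94 against 9.59 CPM) and -1.98 in suffix 2 (6.26 against 54.4 CPM), and passed the limit in suffix 2 alone. Both levels in suffix 1 lay under the 10 CPM added, which understates that ratio. Among the gates Vwf passed in the CD48-low CD150-high gate alone (-1.36), where 23.3 stood against 75.2 CPM. That gate pools the libraries in unequal mix, with suffix 1 giving 49 of 82 cycling cells and 262 of 1037 cells at 0. The part of this mix in the Vwf value was not tested. Gata1 had a UMI in 2.98% of thinned cycling cells and in 0.395% of cells at 0.

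Immediate early genes, known to respond to cell handling, were lower by CPM in 7 of 13 (median -1.01), and the list median was -0.08 per cell. Fos had 136 against 321 CPM and Junb 71.6 against 211. Of 16 nucleolus and growth genes, 0 were higher and 1 was lower, Mycn at -2.08 (20.2 against 118 CPM). Mycn was at -1.17 in suffix 1 and -2.49 in suffix 2, and at -0.95, inside the limit, in the CD48-high CD150-low gate. Myc had 141 CPM in each group over both libraries, with 141 against 184 CPM in suffix 1 (-0.36) and 141 against 119 CPM in suffix 2 (0.23). The list median was 0.53 by CPM and 1.56 per cell. Ribosomal protein genes had a median of -0.26 over 77 genes by CPM and 0.80 per cell, and the 13 mitochondrial genes -0.13 and 0.88, so that the sign of both lists turned with the scale. Over all genes, the scale of UMIs per cell gave 34.0% higher and 0.439% lower, and 140 of the 184 genes lower by CPM were then within 2-fold.

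The genes with the largest negative ratios were partly of few cells. Igkc, an immunoglobulin light chain gene, stood at -6.13. Of the 12 kept cells with over 10% immunoglobulin UMIs, 7 were among the cells at 0, 5 among the cells between and 0 among the cycling cells. Without them, Ighm, an immunoglobulin heavy chain gene, turned from -2.03 to 1.21, and Igkc moved to -0.56. Sult1a1, a sulfotransferase gene, was at -1.62 in suffix 1 (3.25 against 30.8 CPM) and -3.97 in suffix 2 (18.6 against 439 CPM). Nupr1, a stress-response chromatin gene, was at -0.73 (1.83 against 9.59 CPM) and -2.90 (20 against 213 CPM). Adding 10 CPM understates such ratios of low levels, so both genes were lower in each library and the gap between libraries is partly of the scale. Ramp2, a receptor modifier, was at -0.08 and -2.69, so its difference was seen in suffix 2. In the CD48-high CD150-low gate all 3 were inside the limit, Sult1a1 at -0.82, Nupr1 at -0.47 and Ramp2 at 0.00. Tcp11l2 was near level between the libraries at -2.10 and -2.18, and Ltb, the lymphotoxin beta gene, was at -1.94 and -2.36.

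Markers of other blood cells were partly present among the cycling cells. Of 7 T and NK cell markers, 3 had no UMI. Of the same list, Nkg7, a gene of cytotoxic granules, was higher (192 against 73.4 CPM, 1.28, with 0.92 in suffix 1 and 1.48 in suffix 2) and had a UMI in 86.7% of the cycling cells and 33.8% of the cells at 0, and Klrb1c, an NK cell receptor gene, was lower (-1.34, with -0.18 and -1.69). These shares of cells are not thinned, and the cycling cells had the greater depth. Among B cell markers, Cd79a had 0.167 CPM in the cycling cells and 4.10 in the cells at 0, Ms4a1 0.0418 and 0.318, and Jchain, of plasma cells, 0.418 and 43.7. Cd79b, a chain of the B cell receptor, had 36.1 against 44 CPM, with a UMI in 61.5% and 42.1% of cells. Igkc had 32.7 against 2988 CPM, with a UMI in 45% and 41.4% of unthinned cells, but in 24.9% and 35.9% once thinned to the same depth, so the order of its shares turned. The list summed to 69.5 against 3081 CPM, and that of T and NK cells to 194 against 92.1 CPM. The part of other cells or of free RNA in these values was not tested. Of 6 neutrophil markers and 7 markers of monocytes, macrophages and dendritic cells, 0 passed the filter, with summed levels of 5.94 and 25.1 CPM in cycling cells against 10.1 and 14.5 CPM in cells at 0. Of 6 mast cell and basophil markers, Cpa3 was higher at 1.04 (18.3 against 3.78 CPM), with 0.58 in suffix 1 and 1.28 in suffix 2, and the list summed to 28.6 against 4.27 CPM. Erythroblast markers summed to 40.6 and 56.5 CPM, a difference carried by Hbb-bt (25.3 against 52.9 CPM), while the other globin genes Hbb-bs (9.83 against 2.61 CPM), Hba-a1 (4.18 against 0.424 CPM) and Hba-a2 (1.13 against 0.353 CPM) had the higher value in the cycling cells. Endothelial and stromal markers summed to 74.8 and 103 CPM.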

How the data were processed

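LSK cells were profiled by CITE-seq, 1 library per age. The authors aligned the reads to the mouse genome and counted UMIs with Cell Ranger 3.1.0, and the deposited matrix holds these counts for 31053 genes and 4688 barcodes after aggregation. The authors deposited tag values as log10 of the tag count, and 10 to that power was whole for 100% of values (tolerance 1e-06). Kept cells had under 10% mitochondrial UMIs and over 1500 genes. The 5 genes, the gene lists and the comparisons were chosen with earlier results of these data known.

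Counts were summed over cells and scaled to CPM without the 5 genes. Genes with a UMI in at least 10% of the cells of either group were tested, as log2 ratios with 10 CPM added, and called at 2-fold. Named genes were the 15 largest ratios in each direction with the same sign in both libraries, and the list genes. Fold changes on this scale understate those of low genes. Shares have exact Clopper-Pearson intervals and ratios exact conditional Poisson intervals (95%), for counting error only. Scrublet, run through scanpy 1.11.5 on each library with 0.06 as its expected doublet rate, marked doublets, which were kept. No p-value is given. Python 3.11.15, numpy 2.4.6 and scipy 1.17.1 were used, and the contrast was tested on simulated data. Alternatives covered the cell filter, library, doublets, threshold, depth, pseudocount, reference, averaging, gene filter, gate and tag scale. UMIs per cell, the division by unmapped tags, the removal of immunoglobulin-rich cells and the depth band of 15,000 to under 25,000 UMIs were chosen after seeing the data.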

Additional observations from a re-analysis of the deposited data

Results flagged for a closer look

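The sign of the difference by CLCA3A1 tags was not the same in both libraries. The share of cycling cells in the highest minus the lowest CLCA3A1 quartile was 3.67 percentage points in suffix 1 (22.1% to 25.8%) and -25.7 points in suffix 2 (30.7% to 4.99%). The intervals of the outer quartiles overlapped in suffix 1 (18.1 to 26.6 and 21.4 to 30.6) and not in suffix 2 (27.1 to 34.5 and 3.42 to 7.01). With 1 library each, this difference was not tested, and suffix and age cannot be told apart from other differences between the libraries.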

How the results depend on the processing

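The share of cycling cells was 21.1% and became 48.4% among the 372 cells passing the stricter filter (over 2500 genes and under 5% mitochondrial UMIs), 23.1% in suffix 1, 24.0% at a threshold of 2, 17.9% at 5 and 25% after thinning. The depth ratio of 2.09 was 1.95 with groups set after thinning, and kept within its counting interval under 6 of 7 alternatives. The difference between the outer CD48 quartiles, 47.5 points, was 52.5 with the stricter filter, 52.3 and 42.1 at thresholds of 2 and 5, 52.2 after thinning, 33.9 with centred log ratios, 20.3 relative to unmapped tags and 22.2 at 15,000 to under 25,000 UMIs. That for CD150, -16.2 points, was -12.1 with the stricter filter, -2.64 in suffix 1, -24.2 in suffix 2, -26.4 with centred log ratios, -30.6 relative to unmapped tags and -12.1 at 15,000 to under 25,000 UMIs. The 420 genes higher became 634 and 153 with pseudocounts of 1 and 50, and 3415 per cell. The 184 genes lower became 517 and 30 with those pseudocounts, 44 per cell, 83 in suffix 1, 108 against all other kept cells, 59 in the CD48-high CD150-low gate and 75 at 15,000 to under 25,000 UMIs. The stem cell median of -1.18 became -0.78 in suffix 1, -1.43 and -0.69 with those pseudocounts, -0.68 in that gate, -0.37 per cell and -0.88 in that band. The causes were not tested. Of 450 values of named genes under alternatives, 429 kept their direction and the 2-fold limit, 19 fell inside it, Ramp2 was level in that gate (0.00) and Ighm changed sign without immunoglobulin-rich cells (1.21). No paired analysis was possible because each age has 1 library. The lack of replicates limits every value to these cells, and depth moves with the groups.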

Other observations

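The filter left out 620 barcodes, of which 106 (17.1%) reached the threshold of the 5 genes. Of the 345 left-out barcodes with over 1500 genes, 69 (20%) reached it.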
